A study of Mus musculus with 2 samples.

Results

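The mitochondrial ribosomal protein genes of the mouse hippocampus were described here as the 78 genes that have a protein-coding transcript and a symbol starting with Mrpl or Mrps and a number, of 55536 annotated genes. By symbol, 49 belong to the large and 29 to the small subunit. The RNA came from hippocampi of 2 male B6CASTF1/J mice, offspring of C57BL/6J crossed with CAST/EiJ, which were adults of 8 to 10 months. Each animal gave 1 strand-specific, ribosomal RNA-reduced library from 300 ng of total RNA with ERCC spike-ins, which are synthetic control RNAs. Replicate 1 was animal 2 and replicate 2 was animal 4, although the labels give both samples the same donor entry. The labels call the tissue a layer of hippocampus. They define 1 group and no treatment, so there is no comparison of conditions and no p-value: every value below describes these 2 libraries. Since each mouse gave 1 library, effects of the mouse, the dissection, the extraction and the library cannot be told apart.

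Mitochondria carry their own ribosomes, which translate the few messenger RNAs of the mitochondrial genome into membrane subunits of the respiratory chain and of ATP synthase. The ribosomal RNAs are transcribed inside the organelle, whereas every protein of these ribosomes is encoded in the nucleus, made in the cytosol and imported. The small subunit reads the messenger RNA, and the large subunit joins the amino acids. Many of the proteins have a bacterial counterpart, and others are found in mitochondrial ribosomes alone. Neurons depend on oxidative phosphorylation for much of their ATP.

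The authors deposited a gene table and a transcript table from one quantifying program, called the first program here, and a transcript table from another, called the second. Values are those of the first unless the second is named. The libraries held 23458117 and 29584307 expected counts, which are reads per gene with shared reads divided among genes by the quantifying program. Markers of hippocampal excitatory neurons, 9 genes, summed to 3047 and 3036 TPM (transcript abundance corrected for length and scaled to a fixed sum per library), and none was at 0. The 9 choroid plexus markers summed to 17.9 TPM in replicate 1 and 1792 TPM in replicate 2. Of these sums, Ttr alone made up 8.68 and 1703 TPM, and all 9 markers were higher in replicate 2. Markers of astrocytes, oligodendrocytes, microglia and endothelium had 0 members 1.5-fold or more apart between the libraries. In bulk tissue, fewer cells of a type and less RNA per cell cannot be told apart.

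All 78 genes were detected at 1 TPM or more in both libraries, and most lay within a narrow band. In replicate 1, 72 genes had between 10 and 60 TPM, and in replicate 2, 71 genes did. The share of other detected genes within these limits was not counted. The members' 90th percentile of mean TPM was 3.31 times their 10th percentile. Of the lists described below, the ratio was 3.07 for 5 ribosome proteins with other symbols and 3.23 for 4 mitochondrial transcription genes. It was 4.33 for 20 synthetase genes, 4.86 for 11 translation factors and 5.15 for 25 assembly genes. It was 6.40 for 83 cytosolic ribosomal protein genes and 73.1 for 90 nuclear genes of oxidative phosphorylation. Both of these lists hold undetected genes: 80 of the 83 and 85 of the 90 had 1 TPM or more in both libraries. Their ratios without the undetected genes were not computed. Of 21901 genes with a protein-coding transcript, 12999 were detected in both libraries, with a ratio of 28.3. The median was 25.9 TPM in replicate 1 and 24.7 TPM in replicate 2, against 18.3 and 16.6 TPM for those detected genes. Together the members took 0.128% and 0.131% of the counts on annotated genes. Each gene rested on 69 to 1007 expected counts in replicate 1 and 79.6 to 1290 in replicate 2. The order was much alike in both animals, with a Spearman correlation of 0.959 across the 78 genes, which are not independent replicates and share libraries. Neighbouring ranks were nonetheless rarely separated. In 11 of 77 neighbouring pairs, both libraries of the higher gene lay above both libraries of the lower gene. The members lie on 17 chromosomes, with at most 11 on one of them, so they form no single cluster.

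**Figure D1:**
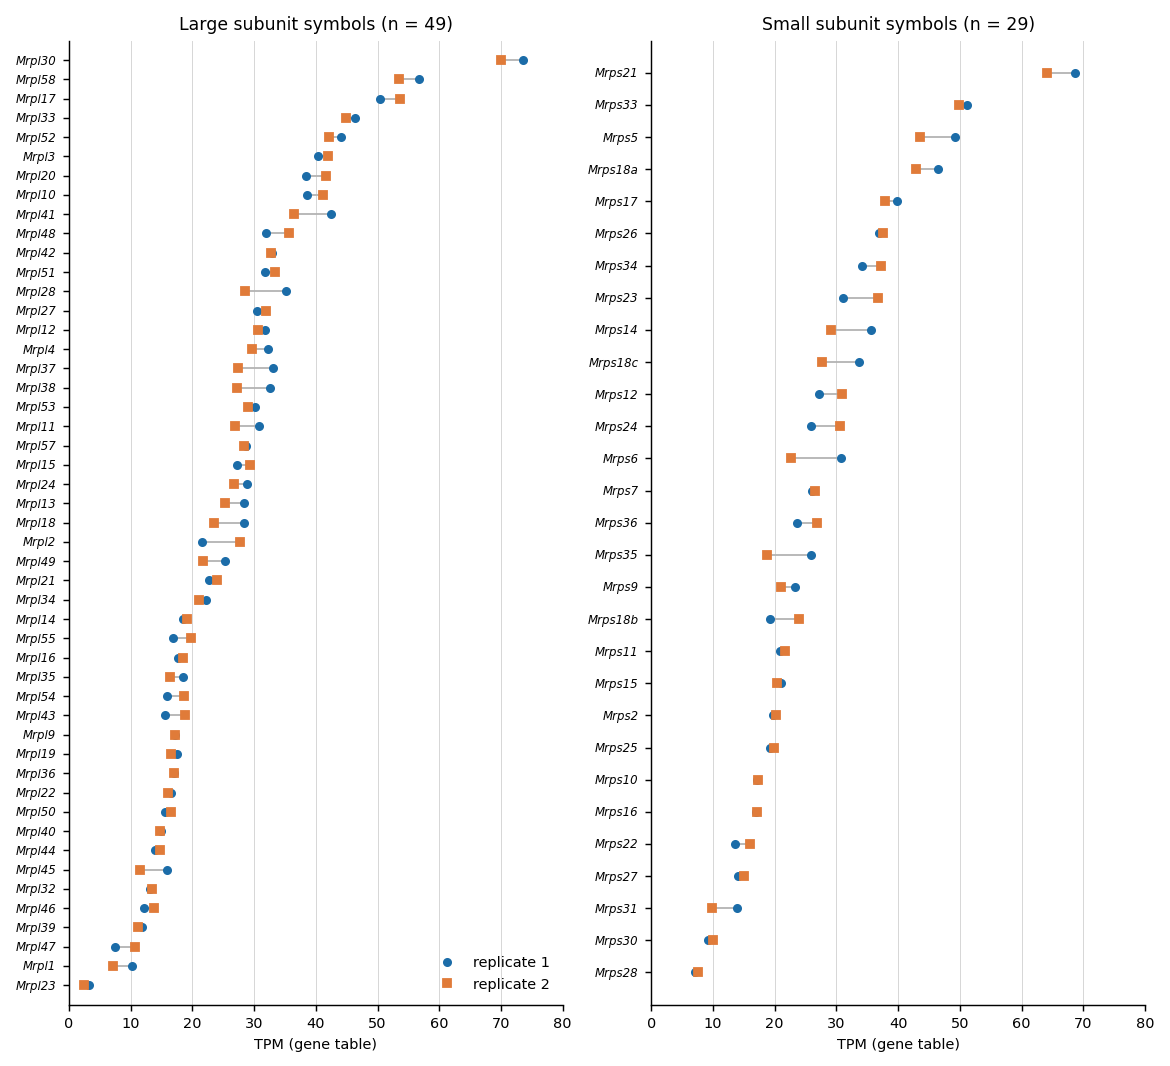
TPM of each of the 78 genes (y axis) in replicate 1 (circles) and replicate 2 (squares), for 49 large and 29 small subunit symbols, each ordered by the mean; grey lines join the libraries. Mrpl30 and Mrps21 stand at the top of their subunits, and Mrpl23 at 3.33 and 2.51 TPM is the lowest gene.

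Among large subunit genes, Mrpl30, whose protein has a bacterial counterpart of the same number, had the highest level, with 73.6 TPM in replicate 1 and 70.1 TPM in replicate 2. Mrpl58, a peptidyl-tRNA hydrolase built into the subunit that can release stalled chains, had 56.8 and 53.5 TPM. Mrpl17 followed with 50.4 and 53.6 TPM, and its order relative to Mrpl58 turned between the animals by the first program but not by the second, which gave Mrpl58 44.5 and 45.3 TPM and Mrpl17 33.7 and 42.4 TPM. Mrpl33 had 46.4 and 44.8 TPM, and the mitochondria-specific Mrpl52 had 44.1 and 42.2 TPM. Mrpl3, which lies near the catalytic centre in bacteria, had 40.4 and 42.0 TPM. This order below Mrpl30 was that of the first program alone. By the second, Mrpl33 had 50.8 and 47.3 TPM, above Mrpl58 in both libraries. Mrpl52, with 47.7 and 42.7 TPM, and Mrpl3, with 44.8 and 43.5 TPM, lay above Mrpl17 in both. Mrpl12, a protein of the stalk that recruits translation factors and that in human cells also binds the mitochondrial RNA polymerase, stood above the median of the list with 31.2 ± 0.76 TPM (mean and SD, n = 2). At the low end, Mrpl39 had 11.9 and 11.2 TPM. Mrpl47 had 7.46 and 10.8 TPM and Mrpl1, a protein of the mobile stalk beside the tRNA exit site, had 10.2 and 7.22 TPM. These last 2 genes exchanged places between the animals by the first program alone, since the second gave Mrpl47 9.37 and 11.0 TPM and Mrpl1 8.70 and 6.38 TPM. Mrpl23, a protein of the peptide exit, had 3.33 and 2.51 TPM in the gene table, a value that depended on the quantifying program and is taken up below with its pseudogene.

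Among small subunit genes, Mrps21 was highest, with 68.6 and 64.1 TPM. It was the shortest member, with a coding sequence of 261 bases, and across the 78 genes mean TPM and coding length had a Spearman correlation of -0.32. That Mrps21 was highest held for the first program alone: by the second it had 61.9 and 58.4 TPM and Mrps33 had 66.1 and 66.8 TPM. By the first program the mitochondria-specific Mrps33 had 51.1 and 49.8 TPM, and Mrps5, a counterpart of a bacterial protein at the messenger RNA entry, had 49.3 and 43.5 TPM. The lowest small subunit genes were Mrps28, with 7.16 and 7.54 TPM, and Mrps30, with 9.13 and 9.99 TPM. By the second program the libraries of these genes overlapped, with 7.29 and 7.72 TPM for Mrps28 and 7.26 and 8.03 TPM for Mrps30. Mrps30 sits in the large subunit in published structures despite its symbol. Mrps36, which has been reassigned to the 2-oxoglutarate dehydrogenase complex and is not a ribosomal protein, had 25.3 ± 2.30 TPM (SD, n = 2), in the middle of the list.

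The 3 paralogs of the bacterial S18 protein stood at different levels. Mrps18a, which occupies the large subunit in structures, had 46.4 and 42.9 TPM. Mrps18c, the paralog in the place of bacterial S18, had 33.6 and 27.7 TPM. Mrps18b, at another site of the small subunit, had 19.2 and 24.0 TPM. The libraries of the 3 paralogs did not overlap, by either quantifying program.

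Large and small subunit genes had nearly the same level. The median was 27.2 TPM for the large and 25.8 TPM for the small subunit in replicate 1, and 25.4 and 24.0 TPM in replicate 2. The ratios of the medians were 1.05 and 1.06, against interquartile ranges of 16.6 to 32.6 TPM for the large and 19.2 to 34.1 TPM for the small subunit in replicate 1. Of the 49 large subunit genes, 25 had a mean above the median of all members, and of the 29 small subunit genes 14 did. Assigning Mrps30 and Mrps18a to the large subunit and leaving out Mrps36 gave ratios of 1.05 and 1.09. The direction did not hold under the second quantifying program, which gave ratios of 0.977 and 0.880. Members with a bacterial counterpart, 46 genes, had medians of 26.0 and 24.7 TPM, and 29 mitochondria-specific members had 25.8 and 21.8 TPM. The difference between these classes was smaller than the range within each, from 2.92 to 71.8 TPM in the first and from 9.56 to 55.2 TPM in the second class.

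The 5 structural proteins of the mitochondrial ribosome with other symbols fell in the same range. Dap3, the GTP-binding protein of the small subunit, had 58.3 ± 4.51 TPM and Aurkaip1, also of the small subunit, had 45.1 ± 3.06 TPM (SD, n = 2 in each). Ptcd3, a pentatricopeptide repeat protein, had 36.2 TPM, Chchd1 had 26.8 TPM and Gadd45gip1, a large subunit protein, had 11.0 TPM as means. The ribosomal RNAs that these proteins bind, mt-Rnr1 and mt-Rnr2, had 32021 ± 3235 and 46804 ± 4344 TPM, although the libraries were depleted of ribosomal RNA, so these are no measure of their abundance in the tissue.

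The enzymes and factors that serve the mitochondrial ribosome were mostly lower than its proteins. The 11 translation factors had medians of 11.8 and 12.02 TPM. Tufm, the elongation factor that brings aminoacyl-tRNA, had 39.3 ± 1.08 TPM, and Gfm1, which moves the ribosome along, had 25.7 ± 1.87 TPM. The release factor genes Mtrf1l and Mtrf1 were lowest, with means of 5.30 and 2.73 TPM. The 25 genes of ribosome assembly and ribosomal RNA modification had medians of 11.9 and 10.3 TPM, from the helicase Dhx30 at 77.2 TPM and the pseudouridine synthase Trub2 at 25.9 TPM to the methyltransferase Tfb1m at 2.60 TPM and the endoribonuclease Ybey at 1.99 TPM, given as means. The 20 genes of aminoacyl-tRNA synthetases and the glutaminyl amidotransferase had medians of 12.2 and 11.0 TPM. Apart from Lars2, described below with the libraries, the highest was Tars2 at 22.9 TPM, and Ears2 and Wars2 were lowest at 4.19 and 3.95 TPM, as means. The 4 transcription genes had medians of 19.8 and 14.7 TPM, with Polrmt, the RNA polymerase, at 25.1 TPM and Tfam, which packages the mitochondrial genome, at 22.9 TPM, Tfb2m at 11.7 TPM and Tefm at 5.82 TPM, as means. Nuclear genes of oxidative phosphorylation, 90 genes, had medians of 107 and 111 TPM, led by Atp5b of the ATP synthase at 827 TPM and Cox8a of cytochrome c oxidase at 498 TPM as means. Cox8c was listed at 0 in both libraries, as was one of the 2 annotation entries named Atp5o, whereas the other Atp5o entry had 188 and 208 TPM. Cytosolic ribosomal protein genes had medians of 183 and 191 TPM, with Rplp1 at 690 TPM and Rpl41 at 615 TPM highest and the paralogs Rpl39l and Rpl10l lowest, at means of 0.060 and 0 TPM. All 78 members lay below the median of the cytosolic ribosomal protein genes in both libraries.

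**Figure D2:**
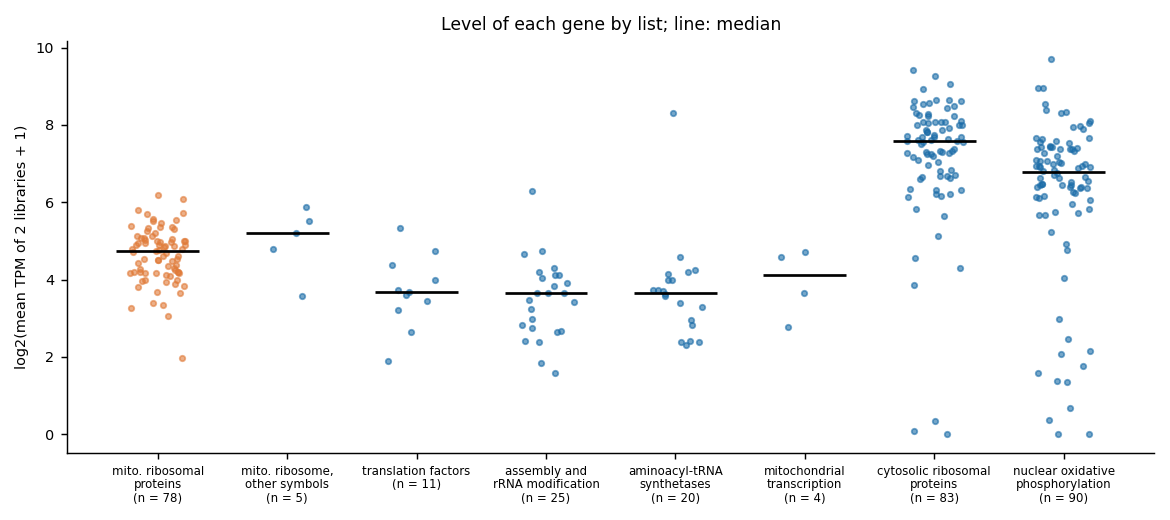
Mean TPM of the 2 libraries on the log2(TPM + 1) scale (y axis) for each gene of 8 lists (x axis), with the number of genes in each; lines mark medians. The 78 mitochondrial ribosomal proteins span a narrower range than the cytosolic ribosomal proteins and the oxidative phosphorylation genes, and their median lies above those of the synthetase and assembly genes. The cytosolic and the oxidative phosphorylation lists include genes at a mean of 0 TPM.

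None of the 78 genes was 1.5-fold or more apart between the animals. The ratio was taken in CPM, counts relative to library size, with TMM scaling, which sets that size from the bulk of the genes. Among all 16155 genes with a CPM of 1 or more in at least 1 library, 14.1% were that far apart. Among the 10154 protein-coding genes within the members' range of mean TPM, 3.57% were. The members' log2 ratios of replicate 2 over replicate 1 ran from -0.42 for Mrps31 to 0.47 for Mrps18b, with a median of 0.12 against 0.03 for all tested genes. By this scaling 59 of 78 members (75.6%) had a ratio above 0, against 54.8% of all tested genes and 56.8% of those within the range. In TPM, 39 of 78 members were higher in replicate 2. Scaling by spike-in totals moved the median of all tested genes to -0.23 and that of the members to -0.15. With it, 12 of 78 members and 2747 of 16155 tested genes were above 0, so no common direction can be given. With spike-in scaling, 0 members were 1.5-fold higher and Mrps31 and Mrps6 were 1.5-fold or more lower in replicate 2, against 16.6% of all tested genes that were lower. The choroid plexus markers were 9 of 9 higher in replicate 2 in the TMM scaling. Their part in the members' small ratios was not tested.

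Of the 8 members farthest apart in the TMM scaling, 7 were higher in replicate 2, in CPM and in TPM alike, and Mrps31 was lower. With spike-in scaling the log2 ratios of the 7 ran from 0.08 for Mrps36 to 0.21 for Mrps18b, and Mrps31 had -0.69. Mrps6, not among the 8, had -0.59 with that scaling, so the order depended on the scaling. Mrps18b had 237 and 400 expected counts, which gave a log2 ratio of 0.47 (95% exact binomial interval 0.24 to 0.71). Mrpl43 had 263 and 441 counts and a log2 ratio of 0.46 (interval 0.24 to 0.69). Mrpl2, a core large subunit protein, had 276 and 455 counts and a log2 ratio of 0.44 (0.22 to 0.66). Mrps31 had 302 and 273 counts and a log2 ratio of -0.42 (-0.67 to -0.18). The remaining 4, Mrps24, Mrpl54, Mrpl55 and Mrps36, had log2 ratios of 0.34 to 0.42. The ratios with their intervals, and those of the remaining 4, are of the TMM scaling. These intervals cover counting error alone and carry no spread between animals. Of the lists above, Lars2, the mitochondrial leucyl-tRNA synthetase, had 610 TPM in replicate 1 and 20.7 TPM in replicate 2. The second program gave Lars2 1606 and 51.6 TPM, other levels but the same direction. Mtg2, a GTPase of large subunit assembly, had a log2 ratio of -0.71. Lars2 and Mtg2 were the only genes of the 5 other mitochondrial lists that were 1.5-fold or more apart, and Mettl17, at -0.58, lay just inside.

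**Figure D3:**
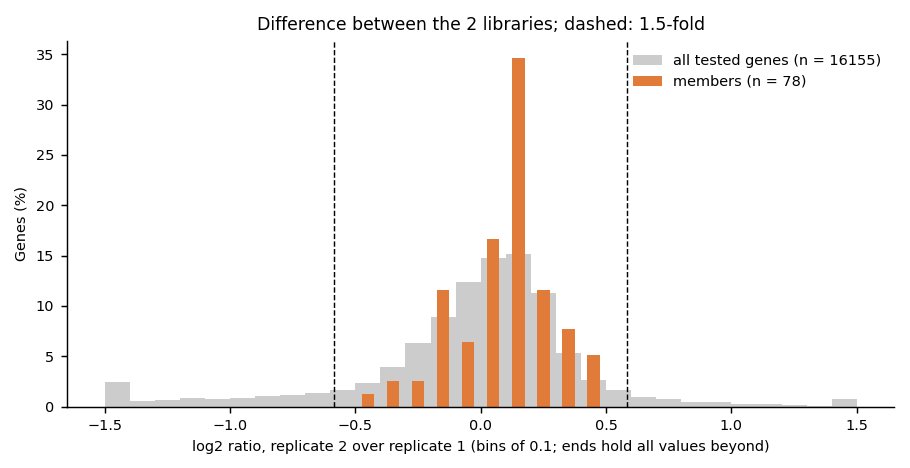
Share of genes in percent (y axis) by log2 ratio of replicate 2 over replicate 1 in bins of 0.1 (x axis), for all 16155 tested genes (wide grey bars) and the 78 members (narrow bars); dashed lines mark 1.5-fold. All members lie between -0.42 and 0.47, inside the lines.

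Part of the members' RNA lay on transcripts that the annotation does not call coding. Of summed TPM, 71.9% in replicate 1 and 73.4% in replicate 2 was on protein_coding transcripts. Retained-intron transcripts, which keep an intron in the RNA, took 13.9% and 11.8%. Processed transcripts, which have no annotated reading frame, took 8.55% and 9.09%, and transcripts annotated for nonsense-mediated decay took 5.72% and 5.70%. By expected counts, which do not weigh short transcripts up, the coding share was 79.2% and 81.4%. The non-coding forms are annotated for 68 of the 78 genes. Over these 68 genes the median coding share of TPM was 81.2% and 85.6%, against 79.6% and 84.4% for detected genes.

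In 16 genes, 9 of the large and 7 of the small subunit, under 50% of TPM was on coding transcripts in both libraries. That is 23.5% of the 68 genes, against 10.6% of the 10248 detected genes with other transcripts annotated. The second program placed 17 members under 50% in both libraries, 13 of them among these 16. Mrpl58, Mrpl23 and Mrpl13 were the genes of the 16 that it did not place there. The lowest share was that of Mrps16, a counterpart of a bacterial assembly protein, with 6.65% and 6.58%. Its processed transcript Mrps16-202 of 801 bases held 93.3% and 93.4% of its TPM. Mrps26 had 9.56% and 8.08% on its coding transcript of 4278 bases, and its retained-intron transcript Mrps26-201 of 1057 bases held 90.4% and 91.9%. Mrpl15 had 10.9% and 9.27% coding, with the processed transcript Mrpl15-202 at 56.9% and 63.8%. Mrps14 had 13.6% and 19.6% coding, with Mrps14-201, annotated for nonsense-mediated decay, at 86.4% and 80.4%, whereas the second program gave Mrps14 33.3% and 38.6% coding. The retained-intron transcript Mrpl57-202 held 84.2% and 84.1% of Mrpl57, whose coding share was 15.8% and 15.9%. In Mrps16 and Mrpl57 the shares of the libraries nearly coincided.

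The remaining 11 genes ranged from 11.0% to 49.9% coding. They were Mrpl32, Mrps24, Mrps11, Mrpl51, Mrps25, Mrpl23, Mrpl58, Mrpl3, Mrpl19, Mrpl13 and Mrps7. Mrpl58, among the highest members by TPM, had 35.9% and 38.2% on coding transcripts by TPM of the first program, 64.3% and 61.1% by the second and 58.5% and 61.3% by expected counts. Mrpl3 had 36.3% and 26.9%, with its leading transcript Mrpl3-204 annotated for nonsense-mediated decay. Mrps7 had 49.9% and 49.8%. Over the 16 genes, the leading transcript was annotated as nonsense-mediated decay in 5, retained intron in 5, processed transcript in 5 and coding in 1. Its median length was 715 bases, against 2725 bases for the highest coding transcript of the same genes. TPM divides by length, so the same reads weigh more on the shorter form. By expected counts, 9 genes in place of 16 were under 50% in both libraries, an alternative chosen after seeing the data. The share of all detected genes under 50% was counted for TPM of the first program only. Whether the members exceed other genes by expected counts or by the second program therefore cannot be read. In Mrps7, 79.7% of counts in each library were on the coding transcript.

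**Figure D4:**
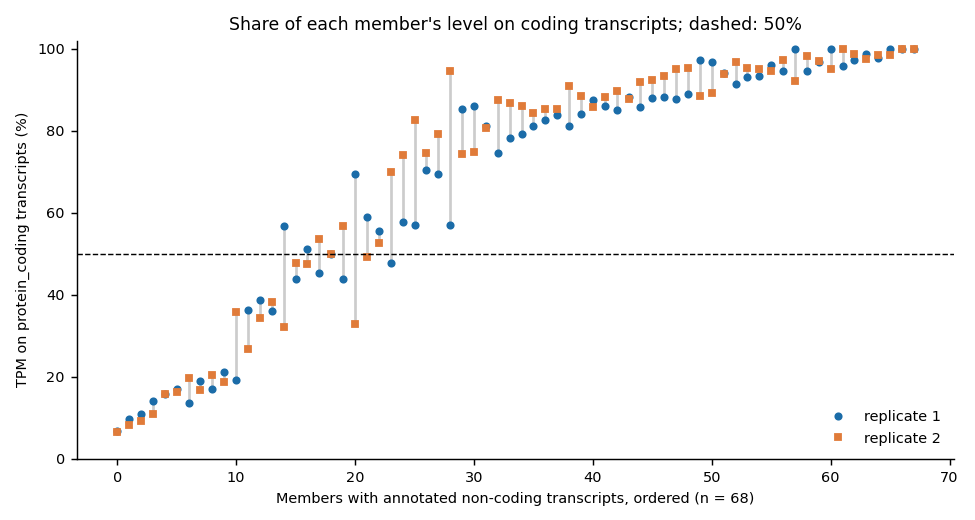
Percent of TPM on protein_coding transcripts (y axis) in replicate 1 (circles) and replicate 2 (squares) for the 68 members with annotated non-coding transcripts, ordered by their mean (x axis); the dashed line is 50%. In 16 genes both libraries lie below the line, and several genes in the middle differ widely between the libraries.

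In 9 of the 78 members the share of at least 1 transcript differed by 20 percentage points or more between the animals by the first program. How many other genes differed that far was not counted, so no excess among the members can be read from this number. In 2 of these, Mrpl33 and Mrps9, the second program gave a difference as large in the same direction for the same transcript. The threshold and the 5 genes described here were chosen after their values were seen. Of Mrpl33, the coding Mrpl33-201 of 478 bases held 56.9% of TPM in replicate 1 and 32.1% in replicate 2. The processed transcript Mrpl33-211 of 367 bases held 28.5% and 57.7%. The second quantifying program gave 63.2% and 40.2% for the former and 11.6% and 39.3% for the latter, the same direction. Of Mrpl47, the coding Mrpl47-201 of 3364 bases held 69.5% and 33.0%, and Mrpl47-202 of 523 bases held 23.8% and 65.0%. The second program gave 49.4% and 32.6% for the former and 46.1% and 65.7% for the latter. The short form rested on 10.6 and 56.2 expected counts, and its TPM was 1.77 and 6.98. The gene had 7.46 and 10.8 TPM on 259 and 282 counts. For Mrps18c, the first program gave the coding Mrps18c-201 56.3% and 92.7%, whereas the second gave 97.6% and 98.3%, so that difference was not seen by both programs. Of Mrps9, the coding Mrps9-201 of 1418 bases held 57.1% and 82.5%, and the second program gave 63.0% and 84.8%. Of Mrpl38, the coding Mrpl38-201 of 1411 bases held 47.7% and 69.9% by the first program and 58.1% and 45.9% by the second, the opposite direction.

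Processed pseudogenes, intronless copies of messenger RNAs, can share reads with their source genes. A search of annotated pseudogene transcripts with the members' coding sequences found 69 copies of 32 members at 80% identity or more over 50% or more of the coding sequence. Of these, 50 had 0 expected counts in both libraries, and 6 had 1 TPM or more in both by the first program. Mrps36 had 14 copies, which together held 1.04 and 1.03 TPM.

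Mrpl23 was the member whose level turned on such a copy. Its pseudogene Mrpl23-ps1, on the minus strand at chr2:74591330-74591909, matches 421 bases of the coding sequence with 100% identity. The stretch shown is coding bases 96 to 155 of Mrpl23, at chr7:142535005-142535064 on the plus strand in exon 2 of the transcript with the longest reading frame, beside chr2:74591816-74591875 of the copy on the minus strand, both in the mm10 assembly (GRCm38); no capitals appear because no base differs.
Mrpl23: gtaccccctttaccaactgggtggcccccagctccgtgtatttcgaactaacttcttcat
Mrpl23-ps1: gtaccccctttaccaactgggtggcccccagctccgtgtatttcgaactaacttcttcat
The first program gave Mrpl23 3.33 and 2.51 TPM and the copy 30.0 and 25.2 TPM, on 203 and 230 expected counts. The second program gave Mrpl23 33.8 and 29.0 TPM and listed the copy at 0 estimated counts in both libraries. The sum of gene and copy was 33.4 and 27.8 TPM by the first and 33.8 and 29.0 TPM by the second program. The programs gave nearly the same sum and divided it in opposite ways, and the rank of Mrpl23 as the lowest member held for the first program alone. Reads within the identical stretch cannot be told apart by sequence.

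Mrps33 and its copy Gm5776, at chr7:54412158-54412478, were both listed with reads by both programs. The copy had 11.7 and 11.0 TPM by the first program and 19.3 and 13.4 TPM by the second, beside 51.1 and 49.8 TPM and 66.1 and 66.8 TPM for the gene. They differ by 1 base in 318, G171A, counted from the first coding base with the gene's base first. It is in capitals in coding bases 151 to 191, at chr6:39805395-39805435 for Mrps33 and chr7:54412288-54412328 for the copy, both on the minus strand.
Mrps33: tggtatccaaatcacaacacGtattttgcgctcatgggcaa
Gm5776: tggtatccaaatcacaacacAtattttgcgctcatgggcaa
The Mrps10 copy AC154457.3 had 5.54 and 4.28 TPM beside 17.1 and 17.3 TPM for the gene, with 97.9% identity. Mrpl48-ps, 98.1% identical to Mrpl48, had 4.96 and 3.54 TPM by the first program, and 0.260 and 0 TPM by the second. The reference is of C57BL/6J, and reads from the CAST/EiJ alleles of a gene or copy may carry other bases. Their part in these values was not tested.

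**Figure D5:**
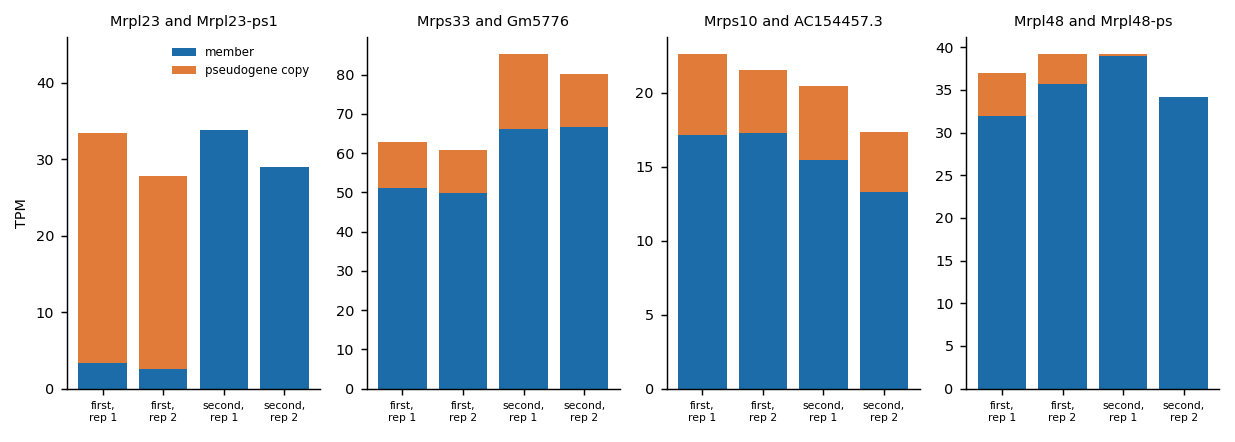
TPM (y axis, from 0, on a scale of its own in each panel) of 4 members and 1 pseudogene copy each, stacked, for the first and the second program in replicates 1 and 2 (x axis). Mrpl23 and its copy sum to between 27.8 and 33.8 TPM by either program, while the gene's own share is 2.51 to 3.33 TPM by the first and all of it by the second.

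Besides Mrpl23, Mrps12 was the other member that differed 1.5-fold or more between the programs in both libraries. The share of all genes that far apart between the programs was not counted. Mrps12, whose bacterial counterpart lies at the decoding centre, had 27.2 and 30.9 TPM by the first and 42.7 and 54.8 TPM by the second program. The second program placed 52.3% and 58.4% of its TPM on the short processed transcript Mrps12-203 of 380 bases, to which the first gave 13.8% and 25.1%.

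Many of the genes lie head to head with a neighbour, the starts of both facing away from a shared stretch of DNA. A start of another protein-coding gene lay on the other strand within 1000 bases upstream of 18 of 78 members, or 23.1%, against 6.78% of the 21901 genes with a protein-coding transcript and 9.62% of those detected in both libraries. The gaps ran from 25 to 934 bases with a median of 81. In 13 of 18 pairs the mitochondrial gene had the higher mean TPM, and 2 partners were below 1 TPM. How often this holds in head-to-head pairs of other genes was not counted. Mrpl30 had 71.8 TPM beside Mitd1 at 5.84 TPM, 65 bases away, and Mrpl57 had 28.5 TPM beside Ska3 at 0.685 TPM. The reverse held for Mrpl49 with 23.5 TPM beside Fau, which encodes a cytosolic ribosomal protein fused to a ubiquitin-like one, at 317 TPM. Mrps12 with 29.0 TPM shares its upstream stretch of 171 bases with Sars2, the mitochondrial seryl-tRNA synthetase, at 6.15 TPM.

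The promoters of 69 members were matched in RefSeq (GRCm38.p6), as windows from 250 bases before to 50 after the start. On either strand, 26 of 69 (37.7%) held CCGGAAG, a core of sites bound by ETS factors, against 13.3% of 16700 promoters and 19.1% of those whose gene was detected in both libraries. The letters CGCATGCG, a core of the site of NRF1, a regulator of nuclear genes for mitochondria, stood in 7 (10.1%) against 2.88% and 4.24%. AAGATGG, a core of YY1 sites, stood in 13 (18.8%) against 7.20% and 8.26%. The GC box GGGCGG was in 49.3% against 50.8% of all promoters and 69.7% of those of detected genes. TATAAA was in 7.25% against 14.6% and 8.70%. A match describes letters in a window and is not a measured site. None of these motifs overlapped in the stretches shown here, which are the whole of 3 shared upstream stretches, on the strand of the mitochondrial gene, with the ETS core, read here as its complement strand CTTCCGG, of the first 2 and the NRF1 core of the last in capitals. They are chr5:100798599-100798626 between Helq and Mrps18c, chr13:99344706-99344785 between Ptcd2 and Mrps27, and chr11:97041408-97041559 between Lrrc46 and Mrpl10, all on the plus strand. All other shared upstream stretches that lay whole within a promoter window held neither the ETS nor the NRF1 core.
Mrps18c: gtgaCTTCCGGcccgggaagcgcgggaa
Mrps27: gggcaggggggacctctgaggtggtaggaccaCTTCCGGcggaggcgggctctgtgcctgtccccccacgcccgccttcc
Mrpl10: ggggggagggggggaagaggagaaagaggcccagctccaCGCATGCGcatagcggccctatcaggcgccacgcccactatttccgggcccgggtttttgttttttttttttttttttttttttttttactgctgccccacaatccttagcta
Mrps18c had 33.6 and 27.7 TPM beside Helq, a DNA helicase gene, at 11.0 and 6.91 TPM. Mrps27, a pentatricopeptide repeat protein of the small subunit, had 14.0 and 15.1 TPM beside Ptcd2 at 17.3 and 13.3 TPM. Mrpl10, which anchors the stalk, had 38.6 and 41.1 TPM beside Lrrc46 at 0.920 and 0.510 TPM. The partner was lower than the mitochondrial gene in both libraries in the first and the last pair, and the order turned between libraries in the other.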

How the data were processed

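Total RNA-seq of 2 hippocampus libraries was analysed. Per the file headers and labels, the authors quantified on mm10 with GENCODE M21. The authors made the expected counts and TPM of the first program (gene and transcript tables) from reads aligned to the transcriptome. The percent values deposited with the transcripts are isoform shares within a gene. The coding shares given here were instead computed from the TPM or counts of each gene's transcripts. The authors made the estimated counts and TPM of the second program straight from the read files, per transcript, and they were summed per gene here. The sources used here do not name either program or its version. Depth was 23458117 and 29584307 expected counts. Log2 ratios used TMM scaling in edgeR 4.0.16 (R 4.3.3) with a prior count of 2, on genes with a CPM of 1 or more in at least 1 library, and no test was run, since 1 group of 2 libraries allows none between conditions. Expected counts were rounded to whole numbers for DESeq2 size factors and intervals. Alternatives used total counts, DESeq2 1.42.0 size factors, spike-in totals, a prior count of 0.5 and the second table. Pseudogene copies were found with blastn 2.17.0 among GENCODE M21 pseudogene transcripts, and promoters were RefSeq windows matched by gene ID. Binomial intervals, and the floor of 3 counts behind a 0, cover counting error only, because reads carry no molecular identifiers.

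The members, the gene lists and the rule for naming genes were chosen with earlier results of these data known. The rule took the 10 highest and 6 lowest members, the 8 farthest apart between libraries, those under 50% coding in both libraries, those 1.5-fold or more apart between programs, and of other lists the highest and lowest 2. It also took the S18 paralogs, Mrps30, Mrps36, Mrpl12, Mrpl58, Lars2 and the 5 structural proteins with other symbols. Members named for copies, transcript shares, gene partners or printed promoters, and Mrps6, Mtg2 and Mettl17, were named after their values were seen. The place of each protein and its bacterial counterpart were assigned from general knowledge, not from the files.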

Additional observations from a re-analysis of the deposited data

Results flagged for a closer look

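These values lie outside the list of members and above the 3 counts that a count of 0 allows in both libraries. They are mean TPM of the 2 libraries by the first program. Mrpl23-ps1, the copy of Mrpl23, had 27.6 TPM on 203 and 230 expected counts. Gm5776, a copy of Mrps33, had 11.4 TPM on 36.4 and 46.3 counts. AC154457.3, a copy of Mrps10, had 4.91 TPM on 36.7 and 38.2 counts. Mrpl48-ps, a copy of Mrpl48, had 4.25 TPM on 37.5 and 36.1 counts. Gm13328, a copy of Mrps5, had 2.72 TPM on 44.8 and 34.8 counts. By the second program, Mrpl23-ps1 was listed at 0 in both libraries and Mrpl48-ps at 0.260 and 0 TPM, whereas Gm5776 had 19.3 and 13.4 TPM, AC154457.3 had 5.06 and 4.02 TPM and Gm13328 had 2.47 and 1.42 TPM. Whether the reads came from the copies or from their source genes was not tested.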

How the results depend on the processing

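Values here are means of the 2 libraries. The ratio of median TPM of large over small subunit genes, 1.06 as reported, turned to 0.928 with the second program and to 0.950 with geometric means in place of medians. It was 1.07 by place in structures, 1.07 without Mrpl23, Mrpl48 and Mrps36, which have a pseudogene named after them, and 1.20 on protein_coding transcripts alone. The large subunit median, 26.3 TPM, became 24.6 with the second program, 23.1 as a geometric mean and 17.3 on coding transcripts alone, and the small subunit median, 24.9 TPM, became 26.4 with the second program and 14.5 on coding transcripts alone. With spike-in scaling, the median log2 ratio of members turned from 0.12 to -0.15 and 2 members in place of 0 were 1.5-fold or more lower in replicate 2. That scaling moved the median of all tested genes by -0.26. Under the other scalings, prior count, fold, filter and program, 0 members were apart in either direction. Under a threshold of 80% in place of 50% coding TPM, 27 members in place of 16 lay under it, and by expected counts 9 lay under 50%. The shares of all genes at these settings were not counted. The coding share of summed TPM, 72.6%, was 71.4% with the second program and 80.3% by expected counts. With replicate 1 or 2 left out, the ratio of medians was 1.05 to 1.06, 19 to 20 members were under 50% coding, and the coding share was 71.9% to 73.4%. With the second program, 76 of 78 members kept a mean level within 1.5-fold, a count that was not made over all genes. The medians of the other 7 lists were 0.903 to 1.06 times as high with it. The shares by counts, the sums of members with their copies and the medians on coding transcripts were chosen after seeing the data. The cause of these changes was not tested. Levels of the lowest members rest on under 100 counts per library in Mrps28 and Mrpl23, and the spread between animals rests on 2 values. No paired analysis was possible because there is 1 group.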
